A study of Rattus norvegicus with 12 samples.

Results

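The question addressed here was whether MCI-186 altered transcript levels differently in injured and in uninjured neonatal rat cortex. All 12 arrays of the series entered the comparison, chosen by sample title, with 3 Wistar pups in each of 4 groups. Rice + MCI-186 pups were injured and given the drug, and Rice + saline pups were injured and given its vehicle. Control + MCI-186 and Control + saline pups were not injured and received the drug or the vehicle. The Rice procedure divided the left carotid artery under ether at 7 days of age, left the pup to recover for 1 to 2 h, and then lowered the oxygen to 8% for 1 h at 33 °C. MCI-186 was given into the abdomen at 9 mg per kg, the saline volume was 100 µl, and in injured pups the injection followed hypoxia at once and was repeated after 30 min. For control pups the labels give an injection but neither a sham operation, ether nor a repeat. The sample labels state an age of 2 weeks and no other time of collection, and the tissue was the cortex on the ligated side or the same side of a control. Each pup was a separate animal, and litter and sex are not in the labels.

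MCI-186 is edaravone, a free radical scavenger that donates an electron to peroxyl and hydroxyl radicals and so interrupts lipid peroxidation. Hypoxia-ischemia in the newborn brain releases such radicals during reperfusion, and the lesion that follows holds dying neurons, activated microglia, reactive astrocytes and oligodendrocytes whose maturation is disturbed. A drug can differ between injured and control animals in either place, by acting on the lesion alone or by acting on healthy tissue in a way that the lesion hides.

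For each gene the MCI-186 difference is the mean of the drug group minus the mean of its saline group on a log2 scale, where 1 is a factor of 2. The interaction is the MCI-186 difference in injured pups minus that in control pups. It is the same number as the injury difference with MCI-186 minus the injury difference with saline. A value above 0 can therefore come from a rise with MCI-186 in injured pups or a fall in control pups. Levels are log2 signals relative to each array's 75th percentile, so they compare samples for one gene and not one gene with another. The place of an interaction was tested by the sum of the 2 MCI-186 differences, which is uncorrelated with the interaction in this balanced design where all groups have 1 spread, as the fit assumes. The spread differed between the groups, as given below, so the tests are not fully independent. A sum of the same sign as the interaction puts the larger part in injured pups, and one of the opposite sign puts it in controls.

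Before the results, some facts of the arrays bear on every value. The 4 groups sat on 4 different slides, and slide cannot be told apart from group in any comparison. Most of the variance, 74.6%, lay on a first principal component that placed injured arrays from -95.3 to -39.8 and control arrays from 68.3 to 76.2. Within the injured groups, Rice + MCI-186 replicate 2 (-39.8) and Rice + saline replicate 1 (-48.3) lay nearest to the controls. Control + saline replicate 3 stood apart from the other controls on the second component, at 46.0 against -17.8 to -4.39. The spread between pups also differed by group, with a median SD over genes of 0.197 in Rice + MCI-186, 0.175 in Rice + saline, 0.0636 in Control + MCI-186 and 0.128 in Control + saline pups. Of the defining markers of cortex, Slc17a7, Snap25, Gad1, Gfap and Mbp were well above background on all 12 arrays.

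Few genes passed the test. Of 9279 named genes, 2 had an interaction at a limma adjusted p below 0.05 (0.0216% of those tested), both above 0, and none below. Asb5 was among them, and 4 probes without a gene name also passed, again all above 0. At an unadjusted limma p below 0.05 there were 353 genes (3.80%), 174 above and 179 below 0. With no interaction in any gene the expected share is 0.05, so these 353 are no excess. They are used below as a description only. An interaction of at least 1 in size was seen in 151 genes (1.63%), 73 above and 78 below 0. The median interaction over all named genes was 0.0002. The 95% limits of the interaction lay within 1 on either side of 0 for 7631 genes, or 82.2%, and the median half-width of those limits was 0.44. For most genes a difference larger than 1 between the MCI-186 effects thus lay outside the limits, whereas smaller differences were not resolved by 3 pups per group. The counts depend on how arrays are weighted. With a weight estimated for each array, 155 genes above and 114 below 0 passed, at weights of 6.60, 0.2245 and 0.3306 for the 3 Rice + MCI-186 pups, so that 1 pup carried most of that group.

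The injury response itself was large in both arms. Averaged over the arms, 6460 genes differed between injured and control cortex (69.6% of 9279), with 5289 (57.0%) in MCI-186 pups and 5133 (55.3%) in saline pups. Across genes the injury difference with MCI-186 and that with saline, which share no array, correlated at r = 0.95 with a slope of 0.97. Genes are not independent replicates, and all of them share the arrays, so this is a description. Among the 1301 genes at least 1 log2 unit higher after injury, the median interaction was 0.04, and among the 386 genes at least 1 unit lower it was 0.01. Of these, 0 in each class passed the interaction test. The limits of the interaction, as used above, lay within 1 on either side of 0 for 49.4% of the 1301 and 59.1% of the 386. Over all named genes that share was 82.2%. For the remaining genes of both classes, a difference larger than 1 between the MCI-186 effects was not excluded. In bulk cortex, fewer cells of a type and less transcript per cell cannot be told apart for any gene below.

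**Figure D1:**
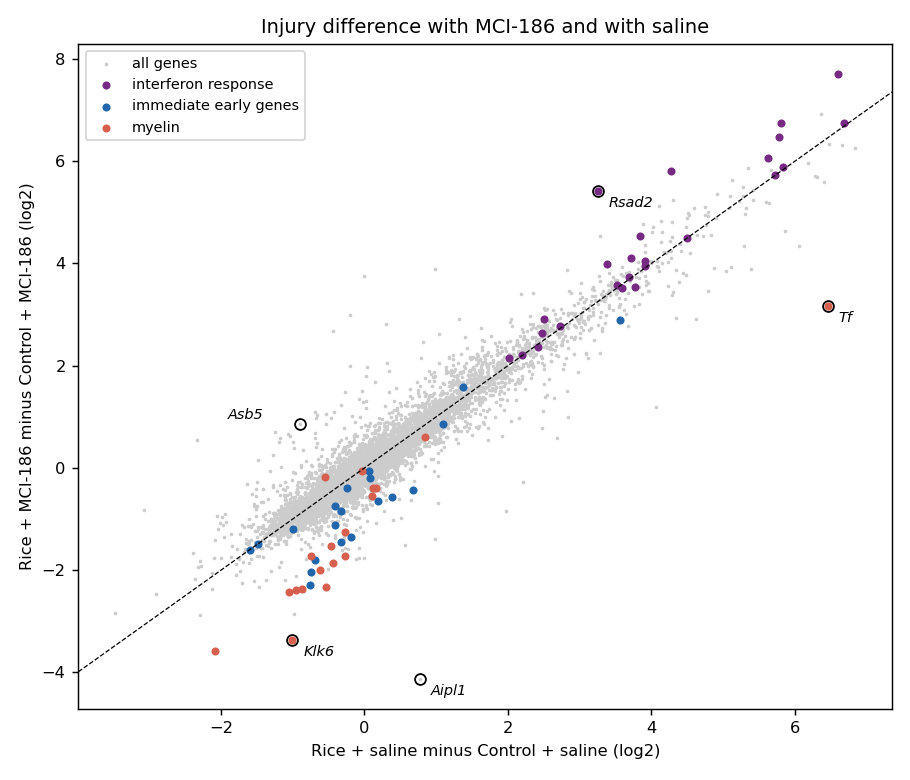
Injury difference in saline pups (x axis, log2) against injury difference in MCI-186 pups (y axis, log2) for every named gene, with 3 gene lists coloured and 5 genes circled. Points on the dashed line have an interaction of 0. Most genes lie near this line, the interferon genes included, while myelin genes lie mostly below it, and Asb5 lies above it. The fitted slope over all genes, 0.97, is not drawn.

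Asb5 encodes an ankyrin repeat protein with a suppressor of cytokine signalling box, a class of substrate receptors of cullin ubiquitin ligases. Its level was -5.08, -4.81 and -5.29 in Rice + MCI-186 pups and -5.36, -5.55 and -5.43 in Rice + saline pups. In Control + MCI-186 pups it was -5.79, -5.89 and -6.07, against -4.29, -4.49 and -4.84 in Control + saline pups. The MCI-186 controls lay below all other arrays. The saline controls lay highest, except that Rice + MCI-186 replicate 2 was above Control + saline replicate 3. The interaction was 1.76 ± 0.23 (SE here and below, limma adjusted p = 0.0484), made of 0.38 ± 0.16 in injured pups and -1.38 ± 0.16 in control pups. Asb5 was not well above background on any Control + MCI-186 array. In the main processing its level was thus at least 1.98-fold higher in Control + saline pups. The fall in controls passed (limma adjusted p = 0.00885), while the sum of the parts, -0.99, did not (limma adjusted p = 0.327), so the place of this interaction was not settled by that test. Its call was lost in 10 of the 12 fits that left out 1 array. Of the other settings, only quantile normalization and array weights kept it. With normexp background correction the interaction was 0.45, and the fall in controls was -0.40 (limma adjusted p = 0.232).

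The 4 unnamed probes had the same form. Probe A_44_P432843 was at -3.49, -3.19 and -3.61 in Control + saline pups and at -7.64 to -7.32 on the other 9 arrays, where it was not well above background. Its interaction was 3.96 ± 0.17 (limma adjusted p = 4.37e-06). The other probes were low in the MCI-186 controls alone. A_44_P143650 was at 1.90, 1.83 and 2.00 there and at 2.97 to 3.16 elsewhere, with an interaction of 1.09 ± 0.12 (limma adjusted p = 0.0125). A_42_P577482 was at -1.13, -1.32 and -0.96 there and at 1.15 to 2.38 elsewhere (interaction 2.87 ± 0.36, limma adjusted p = 0.0441). A_44_P269407 was not well above background in the MCI-186 controls and had an interaction of 3.22 ± 0.34 (limma adjusted p = 0.0125). For 2 of the 4, A_44_P432843 and A_44_P143650, the sum placed the interaction in the controls (limma adjusted p of 3.84e-06 and 0.00559).

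The genes next in line did not pass and are given as values. Just outside the threshold was Aipl1, a chaperone of photoreceptor phosphodiesterase (limma adjusted p = 0.0539). It was well above background on all Control + MCI-186 arrays, on 1 Rice + MCI-186 array and on 0 of either saline group, so the size of its interaction depends on the floor. Its level was -6.46, -6.46 and -4.52 in Rice + MCI-186 pups and -6.49, -6.54 and -6.23 in Rice + saline pups. In Control + MCI-186 pups it was -1.42, -1.43 and -2.23, against -6.94, -7.00 and -7.64 in Control + saline pups, where no array was well above background. In the main processing its level in MCI-186 controls was at least 17.4-fold that of saline controls. This rise passed (5.50 ± 0.46, limma adjusted p = 0.00136), and it was 3.95 with a floor of 0.02 and 2.34 with normexp. The interaction was -4.89 ± 0.66, against -3.57 with a floor of 0.02 and -2.27 with normexp, and the sum placed the difference in the control groups (limma adjusted p = 0.0140). Aipl1 passed for the interaction under quantile normalization, normexp background correction, a higher floor and an intensity trend, at limma adjusted p from 0.0240 to 0.0466.

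Among the other genes with an interaction above 0 was Rsad2, an interferon target that encodes the antiviral enzyme viperin. It was at 3.48, 3.15 and 3.37 in Rice + MCI-186 pups and at 3.29, 2.87 and 3.81 in Rice + saline pups, so the injured groups overlapped. In Control + MCI-186 pups it was at -2.04, -2.10 and -2.14, against 0.54, 0.23 and -0.55 in Control + saline pups. The interaction of 2.17 ± 0.39 (limma adjusted p = 0.209) was made of 0.01 in injured pups and -2.16 in controls, and the fall in controls passed (limma adjusted p = 0.0160). That call was lost with the mean of its probes, with the replicate block, and without Control + saline replicate 2 or any 1 of the Control + MCI-186 arrays, at limma adjusted p from 0.0627 to 0.0772. A second Rsad2 probe gave 3.65 and -3.57 in controls. Tent5c, a cytoplasmic poly(A) polymerase, and Nfe2, a transcription factor of the erythroid and megakaryocyte lineages, showed the same form. Tent5c was at -4.60, -4.68 and -4.01 in MCI-186 controls against -1.59, -2.06 and -2.79 in saline controls (interaction 2.51 ± 0.43). In the main processing Nfe2 was not well above background in MCI-186 controls and at least 3.01-fold higher in saline controls (interaction 3.76 ± 0.68). With normexp its interaction was 1.18 and the part in controls was -0.82.

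The chemokine Ccl22 (1.39 ± 0.26), the F-box gene Fbxl7 (1.96 ± 0.34) and Tmem81 (0.79 ± 0.17) were likewise lowest in the MCI-186 controls. Ccl22 and Fbxl7 were not well above background on any Control + MCI-186 array. The olfactory receptor gene Or2w6 (2.88 ± 0.51) and C14h1orf146 (2.26 ± 0.44) were well above background in saline controls alone. With normexp the interaction was 0.25 for Ccl22, 0.51 for Fbxl7, 0.42 for Or2w6 and 0.39 for C14h1orf146. The fall of Ccl22 in controls did not pass with normexp (limma adjusted p = 0.345) or a floor of 0.02 (limma adjusted p = 0.0599). That of Fbxl7 did not pass with normexp (limma adjusted p = 0.0704). Of the 10 genes with the lowest p above 0, all 10 had the larger MCI-186 difference in controls (61.6% of all genes), and in 7 the fall in controls passed (0.140% of all genes). These genes were picked by the interaction, which holds the same control values. In a fit of only the 6 control arrays, 5 of the 7 lost the call, namely Asb5, Tent5c, Fbxl7, Nfe2 and Rsad2, at limma adjusted p from 0.0611 to 0.0916.

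Of the 10 genes with the lowest p below 0, 9 had the larger MCI-186 difference in controls (61.6% of all genes). In all 10 the control groups did not overlap (27.7% of all genes). These counts share their values with the interaction. Ier2 and Btg2, described with the immediate early genes below, and Ccn1, a secreted matricellular protein induced by serum, passed as higher with MCI-186 in controls. Ccn1 was at -2.55, -1.89 and -1.89 in Control + MCI-186 pups and at -3.95, -4.17 and -4.05 in Control + saline pups, and the injured groups overlapped. Its interaction was -1.71 ± 0.35, and its second probe gave -2.08. Its relative Ccn2, the connective tissue growth factor, was at -0.79 ± 0.16 and had parts of -0.34 in injured and 0.44 in control pups. Fgg, the fibrinogen gamma chain, was at -1.41 ± 0.30.

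In 5 of these 10 the injured groups did not overlap, against 4.14% of all genes, although the choice of the 10 by the interaction uses the same values. Cblc, an epithelial ubiquitin ligase of the Cbl family, had its larger MCI-186 difference in injured pups. Its level was -5.60, -5.44 and -5.85 in Rice + MCI-186 pups and -3.40, -3.86 and -4.77 in Rice + saline pups. In Control + MCI-186 pups it was -1.98, -1.97 and -2.69, against -3.07, -2.93 and -3.08 in Control + saline pups. The MCI-186 difference was -1.62 ± 0.31 in injured and 0.81 ± 0.31 in control pups, and both pairs of groups were apart (interaction -2.43 ± 0.43, limma adjusted p = 0.209). The sum of the parts, -0.81, did not pass (limma adjusted p = 0.779), so the place of this interaction was not settled by that test. Cblc passed for the interaction when Rice + saline replicate 3 was left out (-2.81, limma adjusted p = 0.0231). With normexp background correction its interaction was -1.24.

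Ppp1r14a, Drd1, Lrrc4 and Ccn2 also had parts of opposite sign that were both visible. Drd1, the D1 dopamine receptor, was at -5.18, -5.06 and -5.30 in Rice + MCI-186 and -4.70, -4.81 and -4.93 in Rice + saline pups. It was at -4.42, -4.52 and -4.44 in Control + MCI-186 and -4.88, -4.90 and -5.00 in Control + saline pups. The order of the groups was thus reversed between injured and control cortex (interaction -0.83 ± 0.13, limma adjusted p = 0.141). Lrrc4, a synaptic adhesion molecule, had an interaction of -1.22 ± 0.23 at the probe used and 0.02 at its other probe, so the probes disagree.

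**Figure D2:**
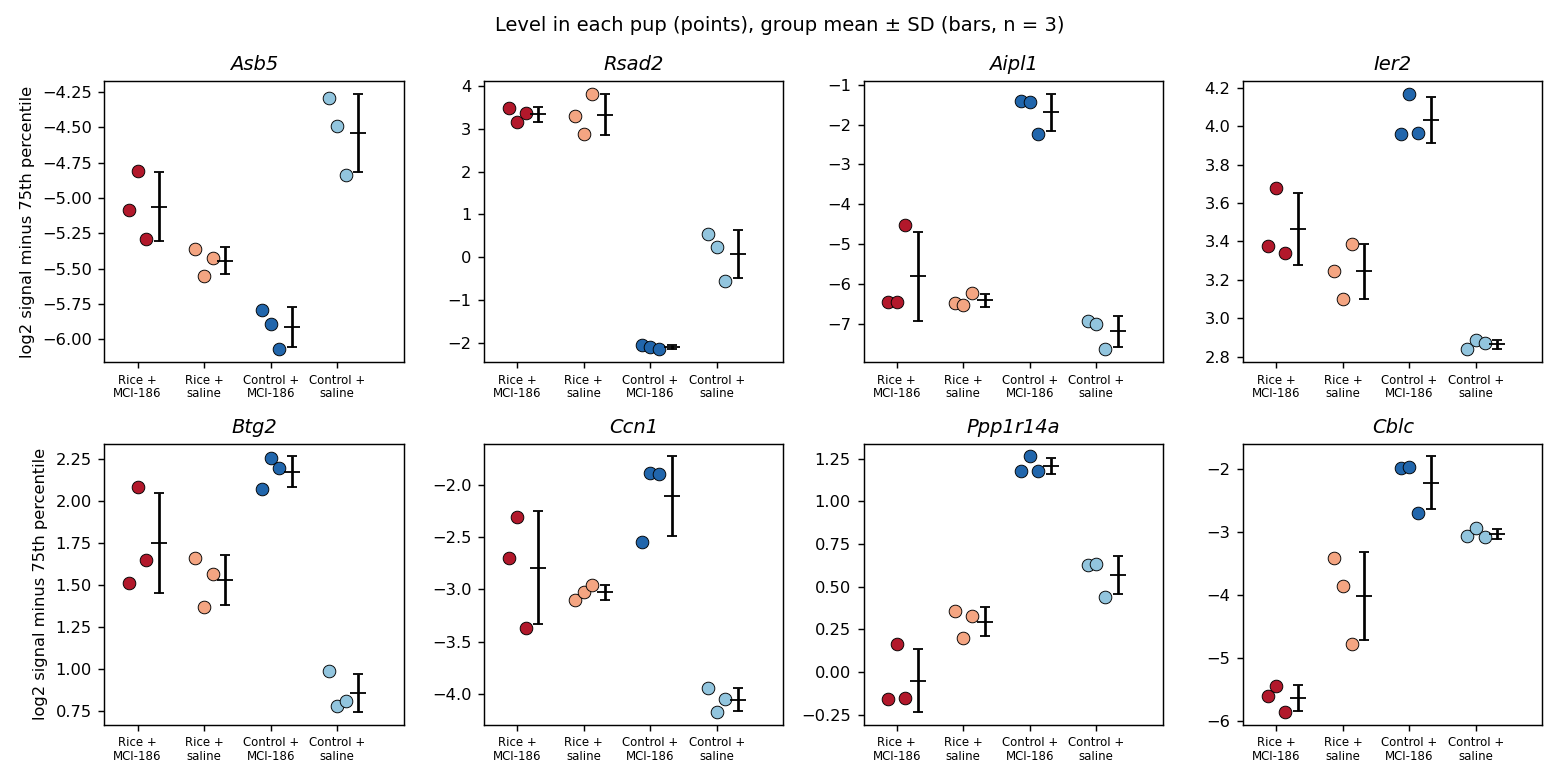
Levels of 8 genes in each of the 12 pups, as log2 signal relative to the array's 75th percentile (y axis, scaled per gene), with group mean ± SD (n = 3). By group mean, Rsad2 is lowest and Aipl1, Ier2, Btg2 and Ccn1 are highest in MCI-186 controls, and Cblc and Ppp1r14a are lowest in Rice + MCI-186 pups.

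Whether the differences arose in control or in injured pups was then asked for all genes. By itself the comparison of MCI-186 with saline called 13 genes in control pups (0.140% of 9281), 5 higher and 8 lower, and 0 in injured pups (0%). At an unadjusted limma p below 0.05 there were 751 genes in controls (8.09%) and 188 in injured pups (2.03%). With no effect in any gene the expected share is 0.05, and the share in injured pups lay below it. The 3 drug and 3 saline values did not overlap for 27.7% of genes in controls and for 4.14% in injured pups. Of the 353 genes with an unadjusted interaction p below 0.05, 268 (75.9%) had the larger MCI-186 difference in controls, against 61.6% of all genes. That share was 37.5% with array weights and 56.0% without Rice + MCI-186 replicate 3, both below the share over all genes in the main setting. The median size of the difference in these 353 was 0.17 in injured and 0.43 in control pups, against 0.08 and 0.11 over all genes. The parts had opposite signs in 286 of the 353, against 3943 of all 9279 genes. Choosing genes by the interaction itself favours parts of opposite sign.

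By the sum of the parts, which did not enter the choice of these 353 genes, 3 were placed in the controls and 0 in the injured pups at an adjusted p below 0.05 (background for all genes 0.0323%). Aipl1 and Ier2 were among them, although neither passed the adjusted threshold for the interaction itself. Of the 2 genes past that threshold, 1 was placed in the controls and 1 was not placed. At an unadjusted p, 109 of the 353 were placed in controls and 6 in injured pups, and 238 in neither. Over all 9279 genes the same rule placed 488 in controls and 113 in injured pups, and 8678 in neither. The fit used 1 spread for all groups, although control pups varied less than injured pups. In 179 of the 353 genes the 3 Control + MCI-186 pups lay wholly outside the range of the other 9 arrays, against 13.7% of all genes. The same held for Control + saline pups in 74 (8.27% of all genes), for Rice + MCI-186 pups in 30 (0.927%) and for Rice + saline pups in 17 (1.82%). These counts describe the genes and share their values with the interaction.

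**Figure D3:**
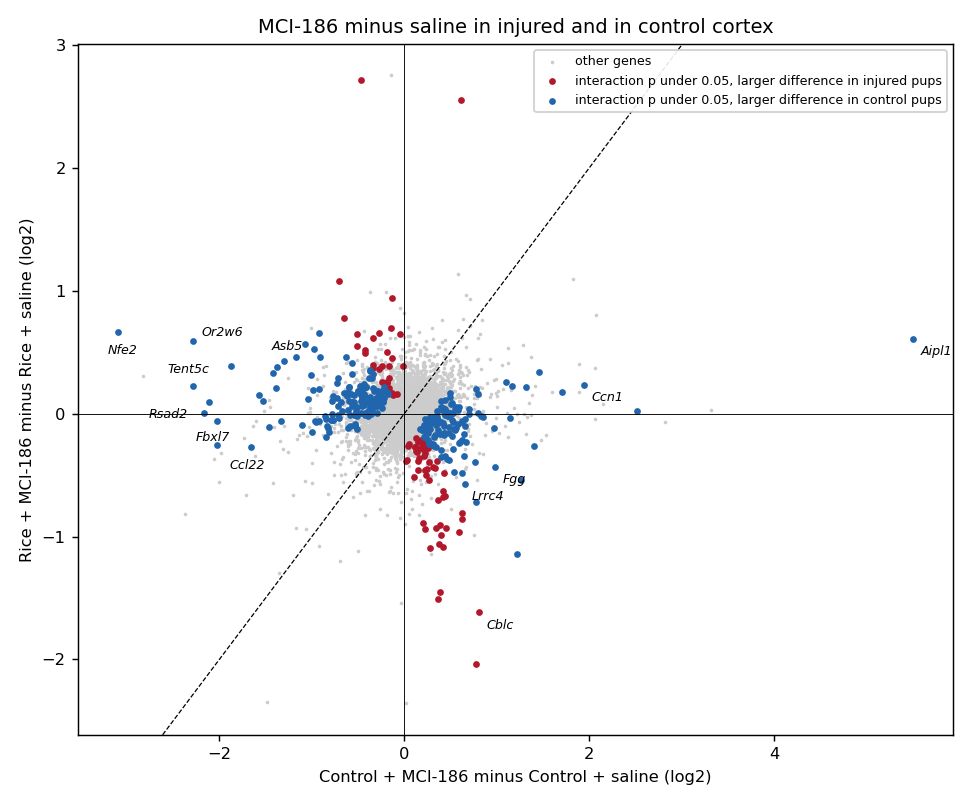
MCI-186 minus saline in control pups (x axis, log2) against the same difference in injured pups (y axis, log2) for every named gene. Genes with an unadjusted interaction p below 0.05 are coloured by where the larger difference lies, blue for 268 genes in controls and red for 85 in injured pups. On the dashed line the interaction is 0, and the coloured genes spread mainly along the horizontal axis.

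Among the gene lists, myelin genes had the largest share of members at an unadjusted p below 0.05, and their interaction lay below 0. Myelin is the membrane that oligodendrocytes wrap around axons, and in rat cortex its genes are switched on in the first weeks after birth. Of 19 measured members 0 passed, 18 of 19 lay below 0, and the median was -1.37 against 0.0002 for all genes. At an unadjusted p below 0.05 there were 12, all below 0, against 3.80% of all genes. The difference was split between the arms, with a median of -0.70 in injured and 0.36 in control pups. Of the 19 members, 17 lay below 0 in injured pups and 18 above 0 in controls.

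Genes of the myelin membrane showed this as follows. Mag, the myelin-associated glycoprotein that faces the axon, was at 1.06, 2.21 and 0.86 in Rice + MCI-186 and at 2.62, 1.87 and 2.05 in Rice + saline pups. It was at 3.23, 3.25 and 3.25 in Control + MCI-186 pups, against 2.58, 2.60 and 2.66 in Control + saline pups (interaction -1.43 ± 0.43). The control groups did not overlap, and Rice + MCI-186 replicate 2 lay among the saline injured pups. Mog, on the outer surface, had -1.37 ± 0.60. Mbp, which compacts the membrane, had -0.98 ± 0.50 with 95% limits of -2.10 and 0.14, and its control groups overlapped.

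Genes of the oligodendrocyte other than structural myelin proteins behaved alike. Ppp1r14a, an inhibitor of myosin phosphatase found in oligodendrocytes and smooth muscle, was at -0.16, 0.16 and -0.15 in Rice + MCI-186 and at 0.35, 0.20 and 0.33 in Rice + saline pups. It was at 1.18, 1.26 and 1.18 in Control + MCI-186 and at 0.63, 0.64 and 0.44 in Control + saline pups. Both pairs of groups were apart, in opposite directions (interaction -0.98 ± 0.15, limma adjusted p = 0.117). The protease Klk6 was at -4.86, -3.40 and -5.39 in Rice + MCI-186 and at -2.99, -4.05 and -3.18 in Rice + saline pups. Its level was -1.09, -1.15 and -1.30 in Control + MCI-186 pups, against -2.24, -2.48 and -2.49 in Control + saline pups (interaction -2.36 ± 0.61). Ppp1r14a and Klk6 passed when Rice + MCI-186 replicate 2 was left out, with limma adjusted p of 0.0374 and 0.0466. The tetraspanin Tspan2 (-0.66 ± 0.15) and the nucleotide phosphodiesterase Cnp (-0.52 ± 0.15) had smaller interactions with both pairs of groups apart. Car2, carbonic anhydrase 2, was the exception above 0 at 0.38 ± 0.41. Tf, transferrin, had the lowest value, -3.28 ± 2.78, which rests on 1 array, since it was at -7.56 in Control + saline replicate 3 and at 1.29 and 2.26 in the other saline controls.

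As a mean over the list, relative to each gene's mean of 12 arrays, the Rice + MCI-186 pups stood at -0.82, -0.11 and -1.02 and the Rice + saline pups at 0.26, -0.33 and -0.07. The Control + MCI-186 pups stood at 0.59, 0.80 and 0.51, against 0.18, 0.16 and -0.14 in Control + saline pups. These means include Tf, whose low value in Control + saline replicate 3 lowers the mean of that array. The control groups were apart, and the injured groups overlapped through Rice + MCI-186 replicate 2. That pup also had the highest neuronal levels of its group. The synaptic and pan-neuronal list stood at -0.69, -0.07 and -0.75 in Rice + MCI-186 and at -0.17, -0.44 and -0.84 in Rice + saline pups. As a description of single arrays, Rice + saline replicate 3 had neuronal levels below those of Rice + MCI-186 replicates 1 and 3 and myelin levels above them. Leaving out Rice + MCI-186 replicate 2 gave a median interaction of -1.85, and leaving out replicate 3 gave -0.95. The part that injury severity has in the myelin values was not tested.

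Of the oligodendrocyte progenitor genes, 3 of 7 reached an unadjusted p below 0.05 (3.80% of all genes), all below 0. Sox10, the transcription factor of the whole lineage, was at 1.88, 1.57 and 1.94 in Rice + MCI-186 and at 1.88, 1.71 and 1.98 in Rice + saline pups. It was at 2.05, 2.11 and 2.04 in Control + MCI-186, against 1.53, 1.40 and 1.40 in Control + saline pups. The injured groups overlapped and the control groups did not, and the interaction of -0.69 ± 0.16 was made of -0.06 and 0.62. Olig1, another lineage factor, had -0.37 ± 0.16, and the sialidase Neu4 had -0.41 ± 0.13. The progenitor receptor Pdgfra was at 0.04 ± 0.19 and the proteoglycan Cspg4 at -0.06 ± 0.17. Of 7 members 0 passed, and the median was -0.18.

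**Figure D4:**
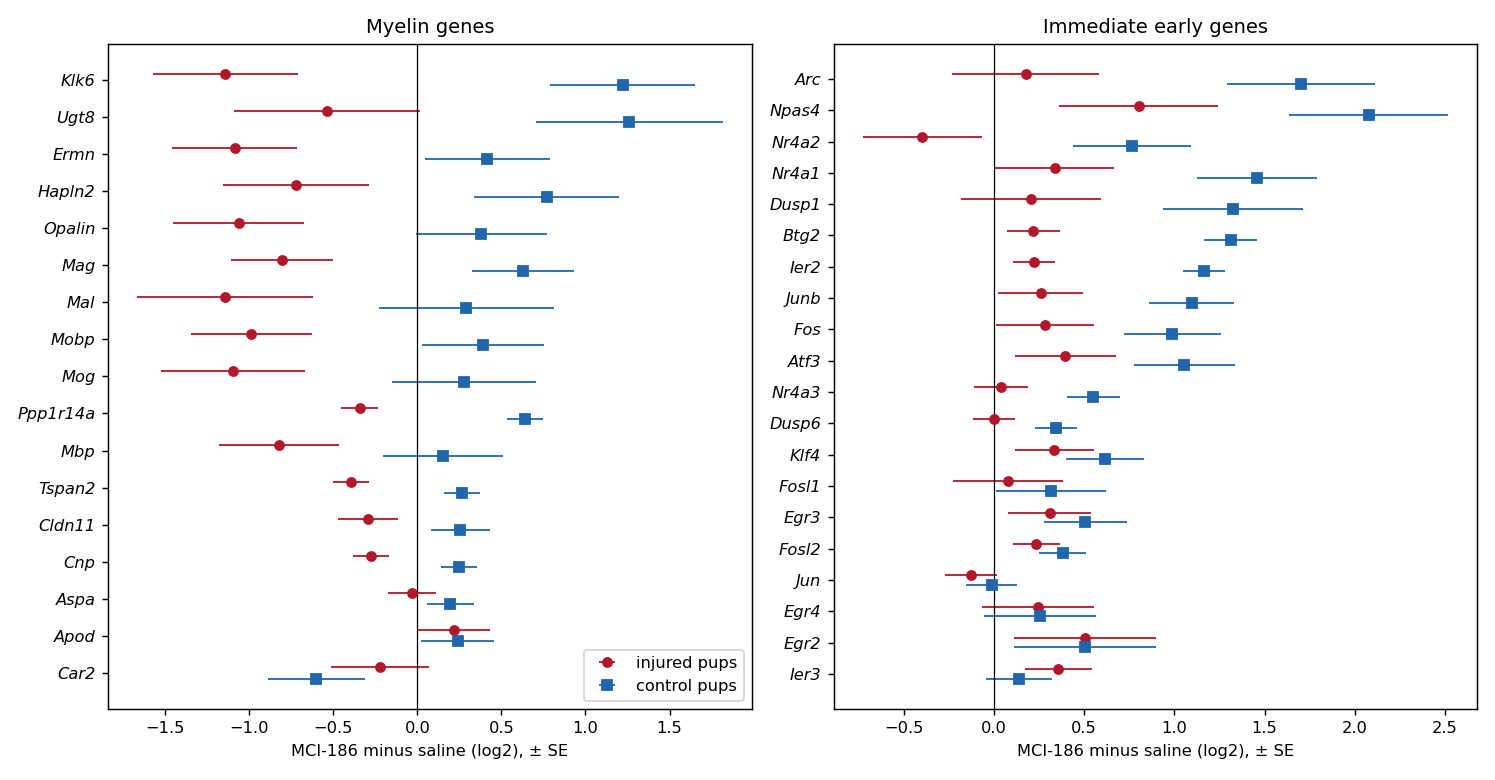
MCI-186 minus saline in injured pups (red circles) and in control pups (blue squares), in log2 units ± SE, for 17 of the 19 measured myelin genes (Tf is left out for scale, and 1 other is not drawn) and all 20 immediate early genes, ordered by interaction. Myelin genes mostly lie left of 0 in injured and right of 0 in control pups, whereas immediate early genes lie further right in control than in injured pups.

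Immediate early genes are transcribed within minutes of neuronal firing, growth factors or stress, and many encode transcription factors. Their median interaction was also below 0. The larger part lay in the controls for 17 of 20 members, against 61.6% of all genes. Of 20 measured members 0 passed the interaction test, 18 lay below 0, and the median was -0.59. At an unadjusted p below 0.05 there were 7, all below 0, against 3.80% of all genes. The median MCI-186 difference was 0.24 in injured and 0.69 in control pups, and 19 of 20 members lay above 0 in controls. In controls 2 members rose past the adjusted threshold, which 0.140% of all genes passed in either direction. The control groups were apart for 15 members, all higher with MCI-186, against 27.7% of all genes. In injured pups the groups were apart for 0 members, against 4.14%.

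Ier2, a nuclear regulator of early transcription, was at 3.38, 3.68 and 3.34 in Rice + MCI-186 and at 3.25, 3.10 and 3.39 in Rice + saline pups. It was at 3.96, 4.17 and 3.96 in Control + MCI-186 pups, against 2.84, 2.89 and 2.87 in Control + saline pups. Injured pups of both treatments thus lay between the control groups. The interaction was -0.95 ± 0.16 (limma adjusted p = 0.199), with parts of 0.22 in injured and 1.17 in control pups, and the rise in controls passed (limma adjusted p = 0.00341). Its sum placed it in the controls (limma adjusted p = 0.0279). Btg2, an antiproliferative gene that promotes messenger RNA deadenylation, was at 1.51, 2.08 and 1.65 in Rice + MCI-186 and at 1.66, 1.37 and 1.57 in Rice + saline pups. It was at 2.07, 2.25 and 2.19 in Control + MCI-186 pups, against 0.99, 0.78 and 0.81 in Control + saline pups. The interaction was -1.09 ± 0.21, and the rise in controls of 1.31 passed (limma adjusted p = 0.00716).

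The activity-regulated genes of neurons had the same order with more spread. Arc, a synaptic protein induced by firing, was at 2.08, 3.54 and 2.02 in Rice + MCI-186 and at 3.08, 2.17 and 1.87 in Rice + saline pups. It was at 4.85, 5.01 and 4.66 in Control + MCI-186 pups, against 2.79, 3.15 and 3.47 in Control + saline pups (interaction -1.53 ± 0.58). The nuclear receptor Nr4a1 was at 5.61, 5.73 and 5.43 in Control + MCI-186 pups, against 3.84, 4.12 and 4.43 in Control + saline pups (interaction -1.12 ± 0.47). The neuronal factor Npas4 was well above background on all Control + MCI-186 arrays and on 2 Control + saline arrays, with an MCI-186 difference of 2.08 ± 0.44 in controls and 0.80 ± 0.44 in injured pups. The AP-1 subunits Junb and Fos had interactions of -0.84 ± 0.33 and -0.71 ± 0.38. Atf3, a stress-induced factor that was far higher in every injured pup, had -0.66 ± 0.40. Jun (-0.11 ± 0.20) and Egr2 (0.00 ± 0.56) had interactions near 0, with wide limits for Egr2. The interval between injection and dissection is not in the labels.

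The promoters of Ier2 and Btg2, the members that rose in MCI-186 controls, are shown because both hold a cyclic AMP response element, the site of CREB-family factors. They run from 250 bases before to 50 after the annotated start, from RefSeq on GRCr8, at chr19:40399123-40399422 on the plus strand for Ier2 and chr13:48087641-48087940 on the minus strand for Btg2. Capitals mark the motif TGACGTCA, searched on both strands together with the serum response CArG box, which neither holds.
Ier2: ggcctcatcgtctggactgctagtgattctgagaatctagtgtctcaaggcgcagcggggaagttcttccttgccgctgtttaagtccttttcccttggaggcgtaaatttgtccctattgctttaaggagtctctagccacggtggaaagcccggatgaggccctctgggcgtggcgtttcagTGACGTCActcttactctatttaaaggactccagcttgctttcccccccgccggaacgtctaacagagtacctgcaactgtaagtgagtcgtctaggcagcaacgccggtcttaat
Btg2: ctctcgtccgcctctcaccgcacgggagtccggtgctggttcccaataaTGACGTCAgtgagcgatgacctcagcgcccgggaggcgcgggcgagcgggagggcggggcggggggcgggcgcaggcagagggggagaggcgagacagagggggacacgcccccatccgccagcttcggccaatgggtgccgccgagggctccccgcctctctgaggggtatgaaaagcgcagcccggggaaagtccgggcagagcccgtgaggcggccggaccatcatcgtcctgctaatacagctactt
Of the 20 members 13 had a promoter in the table, and 3 of these 13 (23.1%), Ier2, Btg2 and Dusp1, hold TGACGTCA, against 1.83% of all 33469 promoters. The CArG box was found in 1 of the 13, Egr2, against 1.64% of all. A match of letters describes the window and does not show that a factor binds there.

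Red blood cell genes had a median interaction of 1.54, the highest of the lists. All 7 measured members lay above 0 in the interaction, 0 passed, and none reached an unadjusted p below 0.05. The median MCI-186 difference was -0.25 in injured and -1.98 in control pups. In controls 6 of the 7 reached an unadjusted p below 0.05 (8.09% of all genes), all lower with MCI-186, and in 6 the control groups did not overlap (27.7%). The beta globin gene Hbb was at 2.37, 4.87 and 2.64 in Rice + MCI-186 and at 3.63, 3.89 and 2.96 in Rice + saline pups. It was at 2.95, 2.87 and 3.29 in Control + MCI-186 pups, against 5.37, 5.25 and 3.70 in Control + saline pups. Alas2, the erythroid enzyme of heme synthesis, and Slc4a1, the red cell anion exchanger, were likewise highest in Rice + MCI-186 replicate 2, at 4.01 and 1.03, and Control + saline replicate 1, at 3.84 and 1.26. Leaving out Rice + MCI-186 replicate 2 lowered the list median to 0.55. Nfe2, which erythroid cells use, was in control pups lowest in the 3 with MCI-186, and among saline controls it had the order of the red blood cell list, at -3.17, -3.97 and -4.66 against list levels of 1.45, 0.91 and 0.16. In injured pups it was highest in Rice + MCI-186 replicate 1, at -2.40. The part of residual blood in these values was not tested.

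Interferon, microglial and reactive astrocyte genes responded strongly to injury, and their interaction medians were between -0.03 and 0.21. Of 25 interferon response genes all 25 were higher after injury in both arms, with median injury differences of 4.05 in MCI-186 and 3.77 in saline pups. Their median interaction was 0.13, 20 of 25 lay above 0, and Rsad2 alone reached an unadjusted p below 0.05. Its neighbours in the response were wide, with the antiviral GTPase Mx1 at 0.93 ± 0.59 and Ifit3 at 1.53 ± 1.02, both not well above background in any MCI-186 control and well above it on 2 of 3 saline control arrays. Microglia and macrophage genes had a median of -0.03 over 26 members (0.35 with array weights), and of reactive astrocyte genes 0 of 18 reached an unadjusted p below 0.05. Gfap, the astrocyte filament, was at -1.86, -1.90 and -1.84 in Control + MCI-186 pups, against -1.37, -1.42 and -1.22 in Control + saline pups, and the interaction of 0.47 ± 0.28 did not pass. The invariant chain gene Cd74, an antigen presentation gene, had 0.69 ± 0.33, and 14 of the 15 antigen presentation genes lay above 0.

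Neuronal lists were centred on 0. Synaptic and pan-neuronal genes had a median interaction of 0.02 over 22 members (-0.20 with array weights), with 95% limits within 1 for 17 of them, and excitatory neuron genes had 0.01 over 15. Among inhibitory neuron genes, somatostatin Sst had -0.79 ± 0.29 and neuropeptide Y, Npy, had -0.74 ± 0.33. The neuropeptide Cck of the same list had -0.14 ± 0.32. Sst was at 4.74, 5.31 and 5.38 in Control + MCI-186 pups, against 4.51, 4.32 and 4.22 in Control + saline pups, and its MCI-186 difference was 0.01 in injured pups. Cartpt, another neuropeptide precursor, had -1.56 ± 0.53, mostly in injured pups (-0.96), whereas the hormone precursor Trh had 1.64 ± 0.42 and was not well above background in either control group. Prkcd, used here as a thalamic marker, had -0.81 ± 0.23. Markers of the striatum other than Drd1 had unadjusted p above 0.05, and the median of that list was -0.13.

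Genes tied to the chemistry of a radical scavenger had interactions centred near 0. Of 30 antioxidant defence genes 0 passed, the median was -0.03, and the 95% limits lay within 1 for 27. Catalase, Cat, reached the lowest unadjusted p at 0.0461, with 0.37 ± 0.16. It was at -1.18, -1.24 and -1.09 in Control + MCI-186 pups, against -0.91, -0.98 and -0.70 in Control + saline pups. The ends of the list were the glutathione transferase Gsta4 (-0.66 ± 0.36) and the glutathione peroxidase Gpx1 (0.53 ± 0.36). The 7 genes of NADPH oxidases and nitric oxide synthases ran from -0.24 to 0.15. Hypoxia-inducible genes had a median of -0.02 over 17 members, with 15 within the limits of 1, and heat shock genes 0.02 over 12.

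Of 21 xenobiotic response genes 5 reached an unadjusted p below 0.05 (3.80% of all genes) and 0 passed, with a median of 0.19. Abcb1a, the P-glycoprotein efflux pump of the blood-brain barrier, had its larger MCI-186 difference in injured pups, where 0 genes passed. It was at -4.35, -4.57 and -4.41 in Rice + MCI-186 and at -5.18, -5.10 and -5.12 in Rice + saline pups, with no overlap (4.14% of all genes). In controls it was at -4.68, -5.18 and -5.22 with MCI-186, against -4.73, -4.98 and -4.94 with saline. The interaction was 0.84 ± 0.20 with 95% limits of 0.39 and 1.28, and 0.69 ± 0.14 of it lay in injured pups. With normexp background correction the interaction was 0.28. Ly6c, counted with endothelial genes and also carried by monocytes, had -1.83 ± 0.42 and was well above background only in Rice + saline pups.

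Cell death genes had 3 of 25 at an unadjusted p below 0.05 (3.80% of all genes). The cell cycle inhibitor Cdkn1a (-0.59 ± 0.19) and the proapoptotic Bcl2l11 (0.48 ± 0.17) were among them, both with the larger part in controls. A pair of genes of the integrated stress response also lay below 0, the pseudokinase Trib3 (-0.82 ± 0.29) and the phosphatase subunit Ppp1r15a (-0.42 ± 0.17). Neutrophil genes had a median of -0.81 with 6 of 7 below 0, and ran from -1.28, for the gelatinase Mmp9, to 0.17 over 7 members, with Rice + saline replicate 3 above all other arrays as a list mean (2.41 against at most 0.82).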

How the data were processed

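Cortical RNA of 12 pups was measured on 12 one-colour Agilent whole-genome rat arrays, 1 pup per array, grouped by sample title. The deposited scanner files hold spot intensity (gProcessedSignal), background-subtracted within the array. Per the file headers the software was Feature Extraction 9.5.3.1, with 0 or 1 flags beside it. The authors' deposited value table holds log2 values of the same arrays centred per probe, and served as an alternative (its centred columns correlated with the scanner values at 0.9998 or more).

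Here log2 intensity was taken relative to each array's 75th percentile, floored at 0.005 of it. Spots marked as controls or outliers were dropped. This leaves 193 missing values, and the fit of such a probe omits those arrays. A probe had to be well above background in every pup of some group, which kept 28523 of 41012, with the brightest probe standing for a gene. RefSeq accessions named 15184 probes and left 25828 unnamed. Group means were fitted with limma 3.58.1 (R 4.3.3) over all 12 arrays, with Benjamini-Hochberg adjustment across 25898 features. Standard errors share 1 spread over all groups. The fit was tested on simulated data.

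The members and gene lists were chosen with earlier results of these data known. Named genes were those past the threshold, the 10 lowest p in each direction, and from each list up to 4 members of lowest p with its highest and lowest value. Some genes chosen this way are not reported here. Other list members in the text were chosen after their values were seen. The number of arrays limits the precision, and 65.1% to 73.7% of spots were well above background. Same replicate numbers did not pair pups, since 2 of 18 same-number pairs correlated above 0.1 in their deviations. Alternatives covered normalization, background, filters, floor, probe summary, trend, weights, the replicate block and each array left out. Slide could not be fitted as a random block, because each group has its own slide.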

Additional observations from a re-analysis of the deposited data

Results flagged for a closer look

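The 5 features given here are listed because the MCI-186 difference itself differed between injured and control pups by the limma test of the interaction. Asb5 (1.7595) and the unnamed probes A_44_P432843 (3.9591), A_44_P269407 (3.2198), A_44_P143650 (1.094) and A_42_P577482 (2.8734) had an MCI-186 difference that was higher in injured than in control pups, in log2 units. In all 5 the larger part lay in the controls. A_44_P432843 stood apart in Control + saline pups, A_44_P143650, A_42_P577482, A_44_P269407 and Asb5 in Control + MCI-186 pups. Each control group lies on its own slide, and slide and group cannot be told apart. Groups of 3 are too small for a test of single outlying pups.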

How the results depend on the processing

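Of the named genes, 2 passed above 0 and 0 below for the interaction. The count above 0 was 0 with normexp background correction and with the mean of a gene's probes. It was 1 with the deposited value table, no filter, a filter on all 12 arrays, a floor of 0.02, an intensity trend, the replicate block and 1 weight per group, the last added after seeing the data. The count below 0 was 1 with quantile normalization, normexp, the higher floor and the trend, as was that of list members. Over all features, 6 passed, against 2 with normexp and 3 with the stricter filter, the probe mean or the block. With array weights, 155 genes above and 114 below 0 passed (754 features), with 47 placed in control and 21 in injured pups, 201 not placed, 42 list members, and for MCI-186 itself 769 genes in injured pups and 278 higher and 236 lower in controls. Of the 2 genes past the adjusted interaction threshold, 1 was placed in controls and 1 was not placed. Counted in the same way, genes placed in controls were 2 with quantile normalization, the higher floor or the trend and 0 with the probe mean. The count not placed was 1 with quantile normalization and 0 with each alternative other than it and array weights. In controls 5 genes were higher and 8 lower with MCI-186, against 33 and 35 with 1 weight per group, 11 higher with only the 6 control arrays, 2 lower with normexp and 4 lower with the stricter filter. With the replicate block, whose numbers do not pair the pups, 3 were higher and 4 lower.

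Without single arrays the count was 1 to 4 above 0 and 0 to 3 below, 2 to 12 features, 0 to 1 in injured pups, and 3 to 10 higher and 3 to 12 lower in controls. Placement ran from 1 to 2 in controls, 0 to 1 in injured pups and 0 to 3 in neither, list members from 0 to 3, and the injury count from 6068 to 6575. Both Tent5c and Rsad2 passed without Control + saline replicate 3. The share of genes with the larger part in controls, 75.9% at an unadjusted p below 0.05, was 37.5% with array weights and 56.0% to 81.5% without single arrays. Medians near 0 changed sign in some settings, such as microglia genes (0.35) and synaptic genes (-0.20) with array weights. With 3 pups per group, a difference under the median half-width of 0.44 was not resolved.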
